A study of Sus scrofa with 7 samples.

Results

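Homeobox and PAX genes encode transcription factors that assign position and cell identity in the early embryo, and 70 of them among the 29510 genes listed were followed across porcine extra-embryonic endoderm (pXEN) cells and 2 kinds of porcine embryonic stem cells (ESCs). The members were all 33 genes whose symbol in the deposited tables is that of a HOXA, HOXB, HOXC or HOXD gene, and the 37 of 49 further homeobox or PAX symbols that were found there. The 12 symbols not found were DLX5, DLX6, GSC, IRX1, IRX2, MEIS1, MSX2, PAX3, PAX7, PITX1, SIX3 and SIX5. By known role the members fell into a head class of 23 genes, a trunk class of 34 (the HOX genes and NKX1-2), a mesendoderm class of 4 (HHEX, LHX1, MIXL1 and NKX2-5) and a broad class of 9 with wider roles.

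The study compared 3 pXEN lines with 2 naïve-like ESC (nESC) lines and 2 primed ESC (pESC) lines by RNA sequencing, with 1 library per line. The pXEN lines, at passages 26, 26 and 23, came from inner cell masses of parthenogenetic blastocysts and were kept on inactivated feeder cells in LCDM medium, which holds LIF, the GSK3 inhibitor CHIR99021, dimethindene maleate and minocycline. The nESC lines, at passages 21 and 22, were kept on mouse embryonic fibroblasts in LBX medium with FGF, LIF, PD0325901 (a MEK inhibitor), CHIR99021, SB431542 (a TGFβ receptor inhibitor) and doxycycline. The pESC lines, both at passage 20, were converted from naïve-like cells according to the labels and were kept on STO feeder cells with growth factors and none of these inhibitors. Cell type and medium therefore changed together and cannot be told apart, and p-values measure only the spread between lines.

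In vertebrate embryos OTX2 marks the future forebrain and midbrain, GBX2 and EN2 act around the midbrain-hindbrain boundary, and HOX genes pattern the hindbrain, trunk and limbs. HOX genes sit in 4 clusters, in which low paralogue numbers are used anteriorly and early and high numbers posteriorly and late. The anterior visceral endoderm, an extra-embryonic tissue that patterns the adjoining epiblast, itself uses OTX2, HHEX, LHX1, HESX1 and GSC. A level in bulk RNA cannot separate fewer expressing cells from less RNA per cell.

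Library totals ran from 10408164 to 12995720 counted reads. A gene was taken as detected above 3 counts, a floor that equalled 0.231 to 0.288 CPM (counts scaled by the library total) and covers counting error only. Levels below are in FPKM, which divides by gene length and library total, and can be set side by side between genes. Differences are log2 fold changes from edgeR's quasi-likelihood test on the counts, called at a Benjamini-Hochberg adjusted p below 0.05 over the 17447 genes tested. The 10 rows of extra-embryonic endoderm markers summed to between 1092 and 1171 FPKM in the pXEN lines and between 9.96 and 12.3 FPKM in the ESC lines. The 10 rows of pluripotent epiblast markers summed to between 78.4 and 103 FPKM in the pXEN lines. They summed to 196 and 246 FPKM in the nESC lines and 518 and 542 FPKM in the pESC lines. Above 3 counts were 5, 6 and 4 of these rows in the pXEN lines, 4 in each nESC line and 8 and 7 in the pESC lines. The 16 rows of fibroblast markers summed to 29.8, 321 and 34.2 FPKM in pXEN lines 1, 2 and 3, so line 2 stood apart from the other pXEN lines. In the ESC lines they summed to between 742 and 1025 FPKM, most of it VIM, which is not particular to fibroblasts. Of these 16 rows, 10, 12 and 11 were above 3 counts in pXEN lines 1, 2 and 3. In the nESC lines 8 and 10 were, and in the pESC lines 12 and 14. DPT was listed at 0 in every library, and the part of fibroblasts in any line was not tested.

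All 3 cell types used members of the set, some of them shared. Of the 70 members, 29 were above 3 counts in every pXEN line, 29 in both nESC lines and 46 in both pESC lines, while 4 (PAX8, LHX8, HOXB13 and HOXC12) had no count in any library. Of the 23 head genes, 4 were above the floor in every pXEN line, 10 in both nESC lines and 18 in both pESC lines. Of the 33 HOX genes, 16, 10 and 15 were. Among the 48 members with a mean of at least 1 FPKM in some cell type, the highest mean was in pXEN cells for 18, in nESCs for 10 and in pESCs for 20. The head genes among them peaked in pESCs in 11 of 17 cases, and the HOX genes in pXEN cells in 11 of 18.

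**Figure D1:**
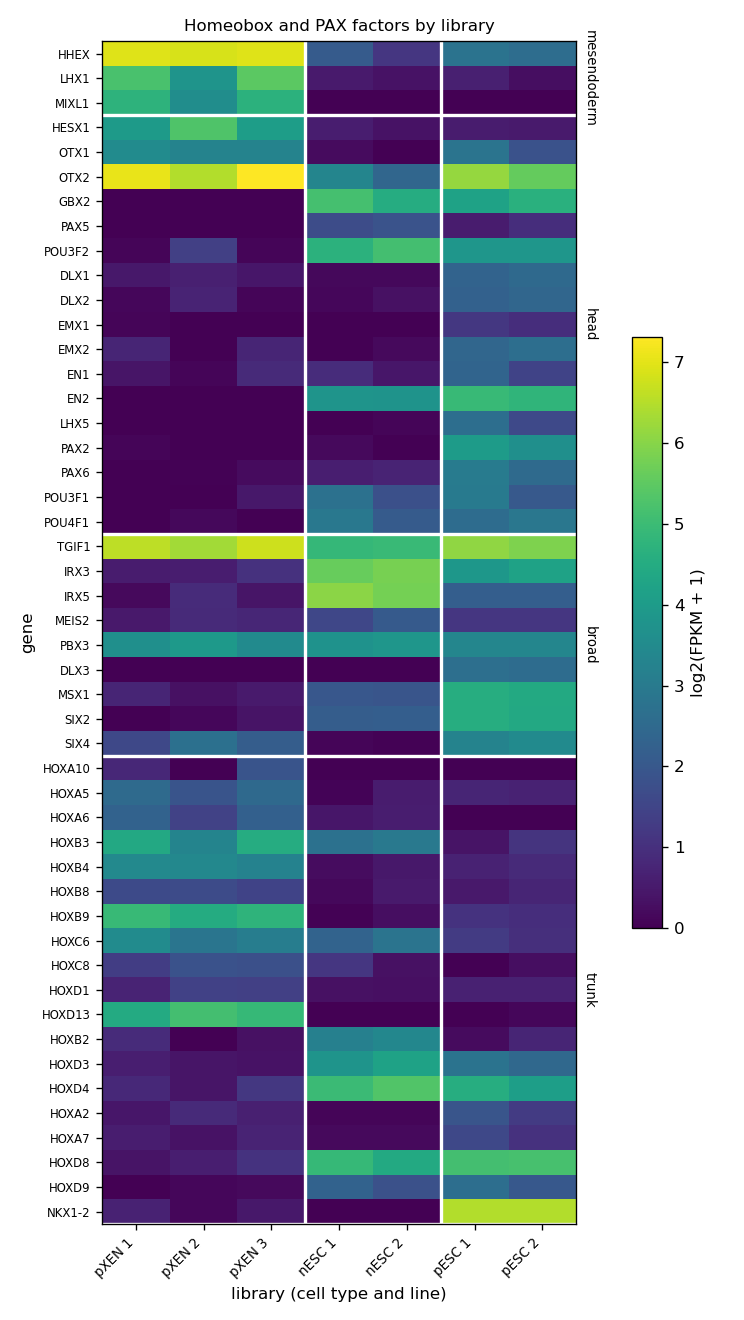
Heat map of log2(FPKM + 1) for the 48 members with a mean of at least 1 FPKM in any cell type; columns are the 7 libraries, rows are genes grouped by class and, within a class, by the cell type with the highest mean. The bright block of HHEX and OTX2 in the pXEN columns stands above 87 FPKM in every line, and NKX1-2 is bright in the pESC columns alone.

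Between pXEN cells and nESCs, 54.5% of all genes tested were called, 28.3% higher and 26.2% lower in pXEN cells. Of the 50 members that passed the filter on low counts, 19 were higher and 17 lower in pXEN cells. Their median log2 fold change was 0.67 (0.56 with genes absent from a cell type set at their bound), and that of all genes tested was 0. Against pESCs, 48.3% of all genes were called, 23.9% higher and 24.4% lower. There 14 of the 50 members were higher and 29 lower, with a median of -2.85 (-1.89 with bounds) and -0.01 over all genes. Both comparisons use the same pXEN libraries, so their counts are not independent. Between pESCs and nESCs, 32.2% of all genes were called, 19.0% higher and 13.3% lower in pESCs. Of the members, 21 were higher and 7 lower in pESCs, with a median of 1.18 and 0.01 over all genes. Without pXEN line 2 the counts were 21 and 17, then 15 and 30, then 22 and 12, and pXEN line 2 enters the last comparison only through the shared scaling and estimate of the spread. The number lower in pESCs than in nESCs was 4 without nESC line 2 or without pESC line 2. The number higher in pXEN cells than in nESCs was 12 without nESC line 1.

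The classes divided differently. The shares of all genes called were 54.5% between pXEN cells and nESCs, 48.3% between pXEN cells and pESCs and 32.2% between pESCs and nESCs. In the same order, 58.8%, 94.1% and 58.8% of the tested head genes were called, the first near the share of all genes. For the tested HOX genes the shares were 78.9%, 78.9% and 47.4%, and for the broad class 77.8% each time. The differences from all genes were not tested. Of the 17 head genes tested, 3 were higher and 7 lower in pXEN cells than in nESCs, 2 were higher and 14 lower than in pESCs, and 10 were higher and none lower in pESCs than in nESCs. Of the 19 HOX genes tested, 10 were higher and 5 lower in pXEN cells than in nESCs, 8 higher and 7 lower than in pESCs, and 4 higher and 5 lower in pESCs than in nESCs. In the mesendoderm class 3 of 4 were higher in pXEN cells than in either kind of ESC. The other, NKX2-5, was called lower in pXEN cells than in pESCs, a call that ended without pXEN line 1 or line 3. In the broad class 2 were higher and 5 lower in pXEN cells than in nESCs, 1 higher and 6 lower than in pESCs, and 5 higher and 2 lower in pESCs than in nESCs. Several of these counts rested on single lines. The HOX genes higher in pXEN cells than in nESCs numbered 4 without nESC line 1 and 5 without nESC line 2, so that they no longer outnumbered the 5 lower. Those lower than in pESCs numbered 4 without pESC line 1. Those lower in pESCs than in nESCs numbered 3 without line 1 and 2 without line 2 of either kind of ESC. The head genes higher in pESCs than in nESCs numbered 6 without nESC line 1, and 2 were called lower without pXEN line 2. Of the head genes higher in pXEN cells than in pESCs, 1 was called without pXEN line 1, pXEN line 3 or pESC line 2. In the broad class none was called higher in pXEN cells than in pESCs without either pESC line, 2 were without pXEN line 3, and 4 were lower in pESCs than in nESCs without pXEN line 2. A gene could pass the filter through the group in which it is high, so these counts describe the tested members and not the whole set.

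**Figure D2:**
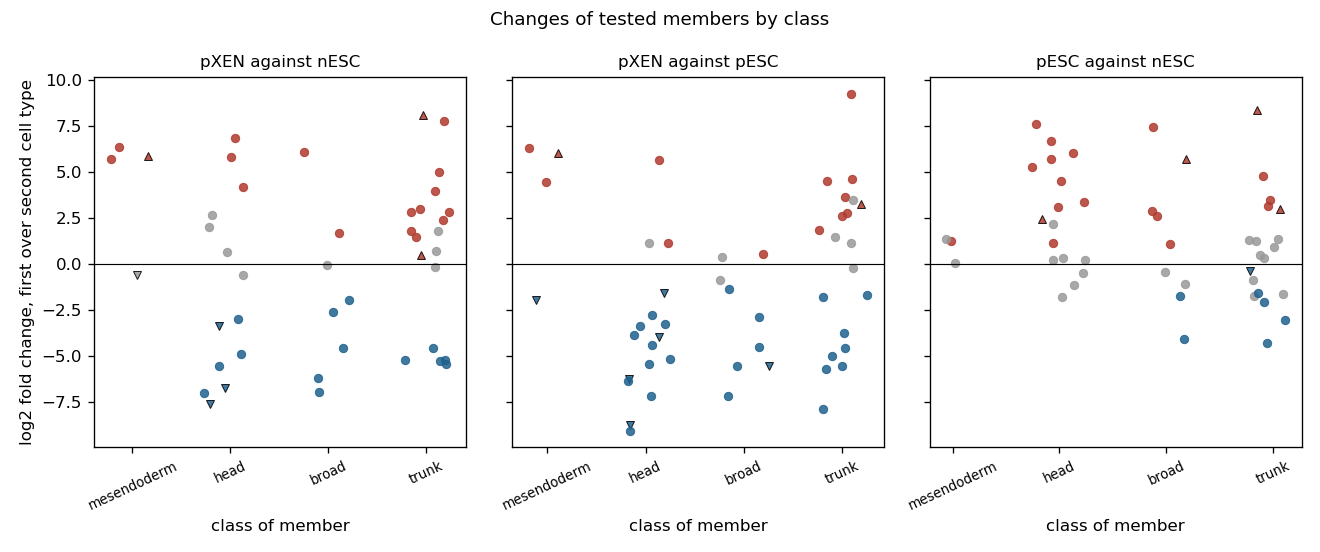
Log2 fold change of each tested member by class in the 3 comparisons, first cell type over second; red points were called higher, blue lower and grey not called. Triangles are bounds for genes without counts in a cell type, circles include ratios for genes with 1 to 3 counts in all in a cell type, and genes at or under the floor in both cell types are left out. In the middle panel 14 of the 17 head genes tested were lower in pXEN cells.

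OTX2, HHEX, LHX1, HESX1 and MIXL1, which act in the anterior endoderm, head organizer or primitive streak, had their highest levels in pXEN cells. OTX2, a paired-type homeobox factor needed for the head, stood at 133, 87.1 and 158 FPKM in the pXEN lines, 9.12 and 4.35 FPKM in the nESC lines and 69.5 and 47.0 FPKM in the pESC lines. No library of one cell type reached the range of another, and the pXEN mean of 126 ± 35.8 FPKM (SD, n = 3) exceeded that of 96.4% of the genes tested. OTX2 was higher in pXEN cells than in nESCs by 4.22 on the log2 scale (SE 0.41, adjusted p = 7.77e-05), and higher in pESCs than in nESCs by 3.10 (SE 0.40, adjusted p = 0.00101). Without nESC line 1 these were 4.83 and 3.72. The difference between pXEN cells and pESCs was smaller, 1.12 (SE 0.34, adjusted p = 0.0261), and was not called without pXEN line 1 (adjusted p = 0.0622), pXEN line 3 (0.0693), pESC line 1 (0.055) or pESC line 2 (0.187). The OTX2 gene lies on chromosome 1 from 206642521 to 206647206 of Sscrofa10.2, on the minus strand.

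HHEX, a homeobox factor of the anterior visceral endoderm and of liver and thyroid primordia, was the most even of these genes. Its level was 122, 116 and 123 FPKM in the pXEN lines, against 3.30 and 1.22 in the nESC lines and 5.85 and 5.12 in the pESC lines. It was higher in pXEN cells by 5.72 (SE 0.34, adjusted p = 7.34e-06) on the log2 scale over nESCs and by 4.46 (SE 0.31, adjusted p = 2.51e-05) over pESCs. HHEX was among the XEN genes that the study displayed for these same libraries, so its direction is not independent evidence. Its difference between pESCs and nESCs, 1.26 (SE 0.34, adjusted p = 0.0251), was not called without pESC line 1 (adjusted p = 0.122) or line 2 (0.0811), nor with only the compared groups in the model (0.0512). Without nESC line 1 the differences from nESCs were 6.6 in pXEN cells and 2.15 in pESCs.

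LHX1, a LIM homeobox factor of the head organizer and the kidney rudiment, was at 35.9, 12.9 and 43.2 FPKM in the pXEN lines and between 0.216 and 0.548 FPKM in the 4 ESC lines. MIXL1, a factor of the primitive streak and nascent mesendoderm, was at 25.7, 11.1 and 24.9 FPKM in the pXEN lines and had no count in any ESC line. HESX1, a repressor used in the anterior endoderm and later in the forebrain and pituitary, was at 14.8, 38.1 and 15.9 FPKM in the pXEN lines and at most 0.487 FPKM in the ESC lines. For each of these genes every pXEN line stood above every ESC line, while pXEN line 2 was the lowest for LHX1 and MIXL1 and the highest for HESX1. LHX1 was higher by 6.36 (SE 0.69, adjusted p = 0.000146) over nESCs and 6.33 (SE 0.68, adjusted p = 0.000193) over pESCs on the log2 scale. HESX1 was higher by 5.85 (SE 0.62, adjusted p = 0.000132) and 5.65 (SE 0.60, adjusted p = 0.000187). MIXL1 was at least 59.9-fold higher than in nESCs (adjusted p = 0.000349) and at least 66.2-fold higher than in pESCs (adjusted p = 0.000423), bounds that set the absent group at 3 counts per library. All 6 calls held without pXEN line 2, where HESX1 exceeded pESCs by 5.06. Without pESC line 1, LHX1 exceeded pESCs by 7.12.

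OTX1, the paralogue of OTX2 with later roles in the cortex, was at 10.6, 8.60 and 8.74 FPKM in the pXEN lines, 0.154 and 0 FPKM in the nESC lines and 5.99 and 2.56 FPKM in the pESC lines. The nESC lines held 2 counts in all, which puts the ratio of pXEN cells to nESCs at 118 (95% exact counting interval 32.3 to 976, adjusted p = 0.00019). Such intervals pool the reads of a cell type over its lines and leave out the spread between lines. Both nESC counts of OTX1 were in line 1, so its ratio was 60.1 (16.5 to 499) without line 2 and at least 38.6 without line 1. Its difference from pESCs, 1.13 (SE 0.46, adjusted p = 0.077), was not called, although it was with DESeq2 (adjusted p = 0.0448), with limma on log2(FPKM + 1) (0.0231) and without pESC line 1 (0.049). A row that the deposited table names GCS carries the identifier that the reference table pairs with GSC, a defining gene of the organizer. It was not among the members by name, and had 140, 52 and 169 counts in the pXEN lines, none in the nESC lines and 2 and 3 in the pESC lines. This row exceeded its nESC level by at least 44.9-fold in pXEN cells (adjusted p = 0.000445) and its pESC level by 5.82 on the log2 scale (adjusted p = 0.000995).

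**Figure D3:**
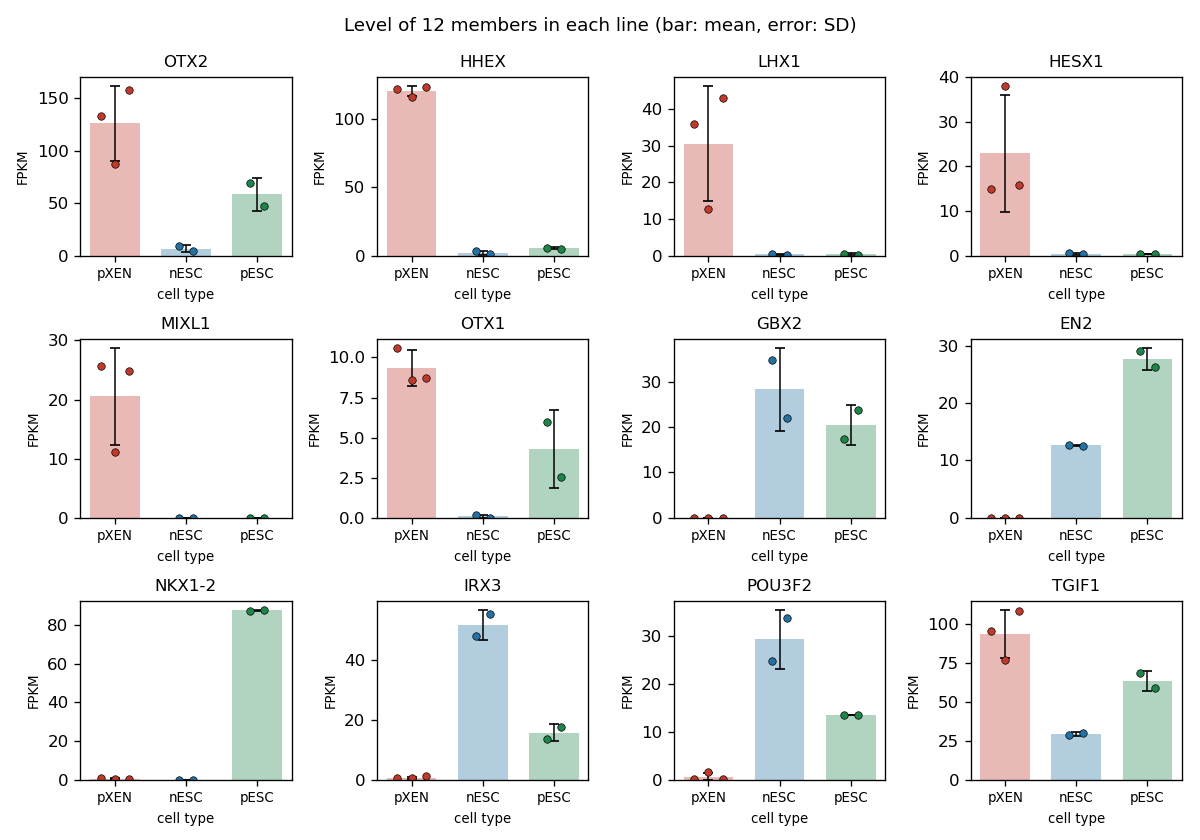
FPKM of 12 members in each line (points), with the mean (bar) and SD (error bar) per cell type; each panel has its own axis, which starts at 0. OTX2, HHEX, LHX1, HESX1, MIXL1 and OTX1 were highest in pXEN cells, GBX2, EN2, IRX3 and POU3F2 were low or without counts there, and NKX1-2 stood at 87.3 and 87.8 FPKM in the pESC lines.

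Other head genes were present in both kinds of ESC and near or at 0 in pXEN cells. GBX2, which opposes OTX2 at the midbrain-hindbrain boundary and also supports naïve pluripotency in mouse ESCs, was at 34.9 and 22.0 FPKM in the nESC lines, 17.5 and 23.7 FPKM in the pESC lines and had no count in the pXEN lines. GBX2 was at least 107-fold lower in pXEN cells than in nESCs (adjusted p = 2.99e-05) and at least 76.8-fold lower than in pESCs (adjusted p = 6.13e-05), and its nESC and pESC lines overlapped. GBX2 was among the pluripotency genes that the study chose, so its direction is not independent evidence. EN2, an Engrailed factor of the midbrain and cerebellum, had no count in the pXEN lines and stood at 12.7 and 12.6 FPKM in the nESC lines and 29.1 and 26.4 FPKM in the pESC lines. It was at least 200-fold lower in pXEN cells than in nESCs (adjusted p = 2.08e-06), at least 434-fold lower than in pESCs (adjusted p = 2.37e-06) and higher in pESCs than in nESCs by 1.12 (SE 0.13, adjusted p = 0.00208). The listed interval of EN2, chromosome 18 from 2986712 to 2994219 of Sscrofa10.2, lies within that of INSIG1 on the same strand, which had 1266, 1185 and 1276 counts in the pXEN lines where EN2 had none.

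The POU factors of neural progenitors and neurons followed the same split. POU3F2 was at 24.9 and 33.6 FPKM in the nESC lines and 13.4 FPKM in each pESC line, against 0.0763, 1.63 and 0.0684 FPKM in the pXEN lines, and 25 of its 27 pXEN counts came from line 2. It was lower in pXEN cells than in nESCs (log2 fold change -5.55, SE 0.73, adjusted p = 0.000405) and than in pESCs (-4.41, SE 0.73, adjusted p = 0.00168). Without pXEN line 2 these log2 fold changes were -8.52 and -7.38, and POU3F2 was then also called lower in pESCs than in nESCs (-1.14, adjusted p = 0.00121, against 0.21 with all lines), as it was with only the compared groups in the model (0.00227). POU4F1, a factor of sensory neurons, was at 6.58 and 3.31 FPKM in the nESC lines and 4.94 and 6.48 FPKM in the pESC lines, with 1 count in all in the pXEN lines. Its ratio was 130 in nESCs (95% exact counting interval 22.7 to 5168, adjusted p = 0.000234) and 148 in pESCs (26.0 to 5888, adjusted p = 0.000259) over pXEN cells. The single count was in line 2, and without that line POU4F1 was at least 13.8-fold higher in nESCs and 15.8-fold higher in pESCs, while without line 3 the ratios were 85.3 and 97.4. POU3F1, a factor of the epiblast and of Schwann cells, was at 5.58 and 2.46 FPKM in the nESC lines, 6.90 and 3.12 FPKM in the pESC lines and 0, 0 and 0.373 FPKM in the pXEN lines. PAX5, of the midbrain-hindbrain boundary and of B cells, had no count in the pXEN lines and was at 2.24 and 2.69 FPKM in the nESC lines and 0.471 and 0.946 FPKM in the pESC lines. It was at least 10.4-fold lower in pXEN cells than in nESCs (adjusted p = 0.000829).

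A further group of head genes was high in pESCs alone. PAX2, of the midbrain-hindbrain boundary and kidney, was at 15.2 and 11.6 FPKM in the pESC lines and at most 0.131 FPKM in the other 5 lines. The pESCs exceeded nESCs, which held 2 counts in all, by a ratio of 198 (95% exact counting interval 54.4 to 1636, adjusted p = 0.000346), and pXEN cells, which held 1 count, by 538.5 (96.1 to 21320, adjusted p = 6.19e-05). Both nESC counts were in line 1, and the excess over nESCs was at least 64.7-fold without that line and 101-fold without line 2. The pXEN count was also in line 1, and the excess over pXEN cells was at least 62.6-fold without that line, 348-fold without line 2 and 355-fold without line 3. PAX6, of eye and neural tube, was at 7.30 and 4.80 FPKM in the pESC lines, 0.527 and 0.643 FPKM in the nESC lines and at most 0.171 FPKM in the pXEN lines. It was lower in pXEN cells than in pESCs (log2 fold change -6.36, SE 0.67, adjusted p = 0.00017) and than in nESCs (-3.01, SE 0.74, adjusted p = 0.00961), with values of -8.12 and -4.78 without pXEN line 3. Its difference between pESCs and nESCs, 3.35 (SE 0.61, adjusted p = 0.00475), was not called without pESC line 1 (adjusted p = 0.0505).

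LHX5, a LIM factor of the forebrain, was at 5.25 and 2.09 FPKM in the pESC lines, had 1 count in all in the nESC lines and none in the pXEN lines. It was at least 15.8-fold lower in pXEN cells than in pESCs (adjusted p = 0.0017), and its ratio of pESCs to nESCs was 103 (95% exact counting interval 18.1 to 4106, adjusted p = 0.00734). Without pESC line 1 these were 8.99 and 59.6, and the ratio to nESCs was 50.4 without nESC line 1 and at least 17.8 without nESC line 2. The cortical factors EMX1, at 1.27 and 0.951 FPKM, and EMX2, at 4.33 and 5.26 FPKM, likewise had their highest values in the pESC lines. EMX1 was at least 5.45-fold higher in pESCs than in nESCs (adjusted p = 0.00855), and EMX2 by a ratio of 66.4 (95% exact counting interval 18.1 to 554, adjusted p = 0.0101), which was 32.5 without nESC line 1 and at least 22.6 without nESC line 2. These 3 calls against nESCs rested on few lines. The EMX1 call ended without any one of nESC line 1 (adjusted p = 0.0619), nESC line 2 (0.0544), pESC line 1 (0.0734) or pESC line 2 (0.0571). The EMX2 call ended without nESC line 1 (0.0761) or pESC line 2 (0.058), and the LHX5 call without nESC line 1 (0.0535) or pESC line 1 (0.0682). Against pXEN cells, the EMX1 call ended without pESC line 1 (0.0544) and the EMX2 call without pESC line 1 (0.0623) or line 2 (0.0883). DLX1, DLX2 and EN1 were also at their highest in pESCs, at 4.33, 4.10 and 2.93 FPKM on average, and all 3 were lower in pXEN cells than in pESCs, EN1 not without pXEN line 1 (adjusted p = 0.0609) or pESC line 1 (0.178). The remaining head genes, LHX2, LHX4, LHX8, LHX9, PAX8 and SIX6, had at most 10 counts in any library and were not tested.

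NKX1-2, a homeobox factor of the caudal epiblast that contains the progenitors of trunk spinal cord, was high in the pESC lines and near or at 0 in the others. It stood at 87.3 and 87.8 FPKM in the pESC lines, above 95.2% of the genes tested, had no count in the nESC lines and was at 0.632, 0.0902 and 0.378 FPKM in the pXEN lines. It was at least 332-fold higher in pESCs than in nESCs (adjusted p = 2.86e-05) and lower in pXEN cells than in pESCs (log2 fold change -7.90, SE 0.35, adjusted p = 8.05e-06, and -8.49 without pXEN line 1). The pXEN lines held 6, 1 and 4 counts, and the call over nESCs (at least 1.39-fold, adjusted p = 0.0197) ended without nESC line 1 (adjusted p = 0.0722) or line 2 (0.067), with the replicate number as a block (0.0607) and with limma on log2(FPKM + 1) (0.114). Without pXEN line 1 the pXEN mean was under the floor.

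The HOX genes in use came from different places in the clusters, and their sum was lower in both pESC lines than in any other line. Their summed FPKM was 108 ± 11.6 in pXEN cells (SD, n = 3), 102 ± 7.35 in nESCs (SD, n = 2) and 75.4 ± 6.63 in pESCs (SD, n = 2). Paralogues 9 to 13 made up 46.3%, 59.1% and 50.2% of this sum in the pXEN lines, 4.47% and 2.95% in the nESC lines and 8.02% and 5.81% in the pESC lines. Paralogues 4 to 8 made up 30.2% on average in pXEN cells, 66.5% in nESCs and 79.6% in pESCs. By cluster, HOXB held 51.2% ± 6.25 of the sum in pXEN cells, 15.5% ± 1.01 in nESCs and 5.33% ± 2.27 in pESCs, and HOXD held 29.8% ± 8.99, 77.0% ± 2.20 and 85.3% ± 0.164 (SD over lines). A few genes carried these shares, mainly HOXB9, HOXD13 and HOXB3 in pXEN cells and HOXD4, HOXD8 and HOXD3 in the ESCs.

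**Figure D4:**
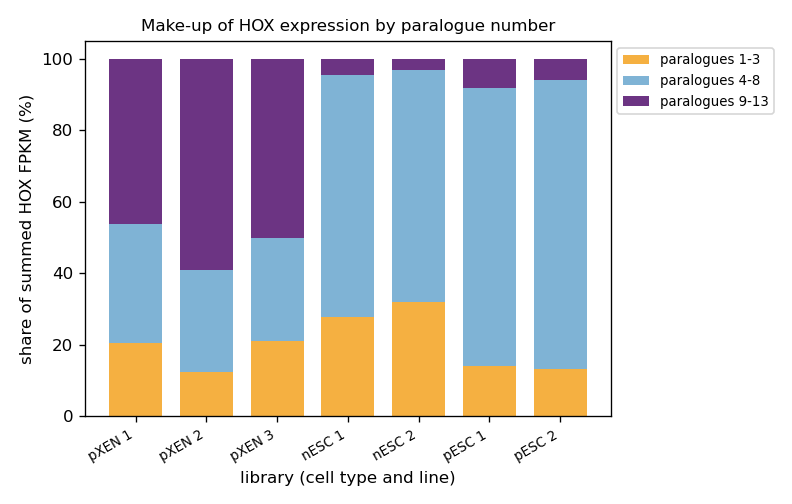
Share of the summed FPKM of the 33 HOX genes (vertical axis, percent) held by paralogues 1 to 3, 4 to 8 and 9 to 13 in each library. The purple block of paralogues 9 to 13 covers between 46.3% and 59.1% in the pXEN lines and at most 8.02% in the ESC lines.

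The HOXD cluster was split within itself. HOXD13, the last paralogue, used in digits, genitalia and hindgut, was at 21.1, 33.8 and 28.9 FPKM in the pXEN lines, 0 in the nESC lines and 0 and 0.0903 FPKM in the pESC lines. Its pXEN level was at least 273-fold above that in nESCs (adjusted p = 1.54e-05) and exceeded pESCs, with 3 counts in all, by a ratio of 610 (95% exact counting interval 209 to 2962, adjusted p = 2.78e-05). All 3 counts were in pESC line 2, and the excess was at least 292-fold without that line and 315-fold (108 to 1528) without pESC line 1. Nearer the other end of the cluster the order of the cell types was turned around. HOXD8 was at 0.305, 0.522 and 1.09 FPKM in the pXEN lines, 28.6 and 20.9 FPKM in the nESC lines and 34.0 and 35.6 FPKM in the pESC lines. HOXD4 was at 0.786, 0.337 and 1.29 FPKM in the pXEN lines, 30.3 and 39.2 FPKM in the nESC lines and 22.6 and 16.3 FPKM in the pESC lines. HOXD3 was at 0.543, 0.332 and 0.278 FPKM, then 12.7 and 17.6 FPKM, then 5.87 and 4.53 FPKM in the same order. All 3, which act from the hindbrain to the trunk, were thus low in every pXEN line with no overlap with the ESC lines.

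Their log2 fold changes in pXEN cells against nESCs were -5.23 for HOXD8 (SE 0.37, adjusted p = 1.54e-05), -5.42 for HOXD4 (SE 0.39, adjusted p = 1.77e-05) and -5.30 for HOXD3 (SE 0.35, adjusted p = 1.1e-05). Against pESCs they were -5.71, -4.57 and -3.74, all called. Without pXEN line 3 those of HOXD8 were -5.83 and -6.30. HOXD3 was lower in pESCs than in nESCs (log2 fold change -1.56, SE 0.31, adjusted p = 0.00717), a call that ended without nESC line 2 (adjusted p = 0.0643) or pESC line 2 (0.0696). HOXD9 was also lower in pXEN cells than in both ESCs, whereas HOXD1, at the other end of the cluster, was higher in pXEN cells than in nESCs, at 1.31 ± 0.577 against 0.243 ± 0.0249 FPKM, a call that ended without nESC line 1 (adjusted p = 0.0558) or line 2 (0.0636).

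Some neighbours of these genes in the listed coordinates divided likewise, and others did not. EVX2, the homeobox gene beyond HOXD13, had 51, 13 and 86 counts in the pXEN lines and none in any ESC line, and was at least 18.6-fold higher than in nESCs (adjusted p = 0.00627) and 20.5-fold higher than in pESCs (adjusted p = 0.00682). HOXD12, next to HOXD13, had 3, 4 and 4 counts in the pXEN lines and none elsewhere and was not tested. Of the 4 unannotated transcripts listed within the cluster, the 2 on either side of HOXD8 were lower in pXEN cells than in both kinds of ESC. One, on the plus strand from 91398230 to 91398959 of chromosome 15 (Sscrofa10.2), had 1, 2 and 2 counts in the pXEN lines, 59 and 56 in the nESC lines and 83 and 116 in the pESC lines. The other, on the minus strand from 91403100 to 91405789, had no count in the pXEN lines, 25 and 24 in the nESC lines and 59 and 71 in the pESC lines. The other two unannotated transcripts, nearer HOXD3, were present in every line, with 40 to 118 and 32 to 58 counts in the pXEN lines. Neither was called against nESCs (adjusted p = 0.466 and 0.0928) or pESCs (0.78 and 0.411). HOXD13 lies from 91361475 to 91364735 and HOXD8 from 91399214 to 91400254 of the same chromosome, both on the plus strand.

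In the HOXB cluster HOXB9, HOXB4 and HOXB8 were higher in pXEN cells than in either kind of ESC. HOXB9, a factor of the thoracic region, was at 29.4, 21.6 and 26.1 FPKM in the pXEN lines, 0.0314 and 0.196 FPKM in the nESC lines and 1.12 and 0.934 FPKM in the pESC lines. It was higher in pXEN cells by 7.78 (SE 0.40, adjusted p = 3.77e-06) on the log2 scale over nESCs and by 4.65 (SE 0.30, adjusted p = 1.68e-05) over pESCs. The pESC lines, with 37 and 33 counts, were in turn above the nESC lines, with 1 and 6, by 3.13 (SE 0.50, adjusted p = 0.00262). With 1 nESC line left out at a time, HOXB9 exceeded nESCs by 6.99 and 9.49 in pXEN cells and by 2.34 and 4.85 in pESCs, the lower value each time without line 1. HOXB4, of the hindbrain and of blood progenitors, was at 9.96, 9.60 and 8.42 FPKM in the pXEN lines and between 0.184 and 0.827 FPKM in the ESC lines. It was higher by 4.99 (SE 0.45, adjusted p = 5.7e-05) and 3.67 (SE 0.40, adjusted p = 0.000198), the former being 5.57 without nESC line 2. HOXB8 had a mean of 2.04 FPKM in pXEN cells. Its call over nESCs (adjusted p = 0.00848) ended without nESC line 1 (0.0775). Its call over pESCs (0.0343) ended without any one of pXEN line 1, pXEN line 3, pESC line 1 or pESC line 2, with DESeq2, with no filter on low counts and with the replicate number as a block, at adjusted p between 0.0522 and 0.234. The row of the microRNA gene mir-196a-1, which the tables place beside HOXB9, had 14, 9 and 15 counts in the pXEN lines and none in the ESC lines, and was at least 4.70-fold higher than in nESCs (adjusted p = 0.00475). These are reads on the listed hairpin interval and not mature microRNA.

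HOXB3 was present in both pXEN cells and nESCs. HOXB3 was at 20.4, 8.78 and 21.9 FPKM in the pXEN lines, 5.59 and 6.73 FPKM in the nESC lines and 0.305 and 1.14 FPKM in the pESC lines. It was higher in pXEN cells than in pESCs by 4.53 (SE 0.60, adjusted p = 0.000571) and lower in pESCs than in nESCs (log2 fold change -3.07, SE 0.62, adjusted p = 0.00749). These were 3.89 and -2.43 without pESC line 1, and 5.76 and -4.30 without line 2. Its difference between pXEN cells and nESCs, 1.46 (SE 0.48, adjusted p = 0.0323), was not called without pXEN line 1 (adjusted p = 0.0866), pXEN line 3 (0.0917), nESC line 1 (0.162) or nESC line 2 (0.105), nor with upper-quartile scaling (0.0507), limma on log2(FPKM + 0.1) (0.0819) or the replicate number as a block (0.109). HOXB2, a hindbrain gene, was highest in nESCs, at 8.07 and 9.42 FPKM against 0.860, 0 and 0.257 FPKM in the pXEN lines and 0.149 and 0.698 FPKM in the pESC lines. It was lower in pXEN cells than in nESCs (log2 fold change -4.58, SE 0.88, adjusted p = 0.0029), with values of -6.01 without pXEN line 1 and -3.98 without line 2. The call between pESCs and nESCs, -4.33 (adjusted p = 0.0126), ended without nESC line 1 (adjusted p = 0.0523), nESC line 2 (0.0578) or pESC line 1 (0.0918), and was -5.79 without pESC line 2.

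**Figure D5:**
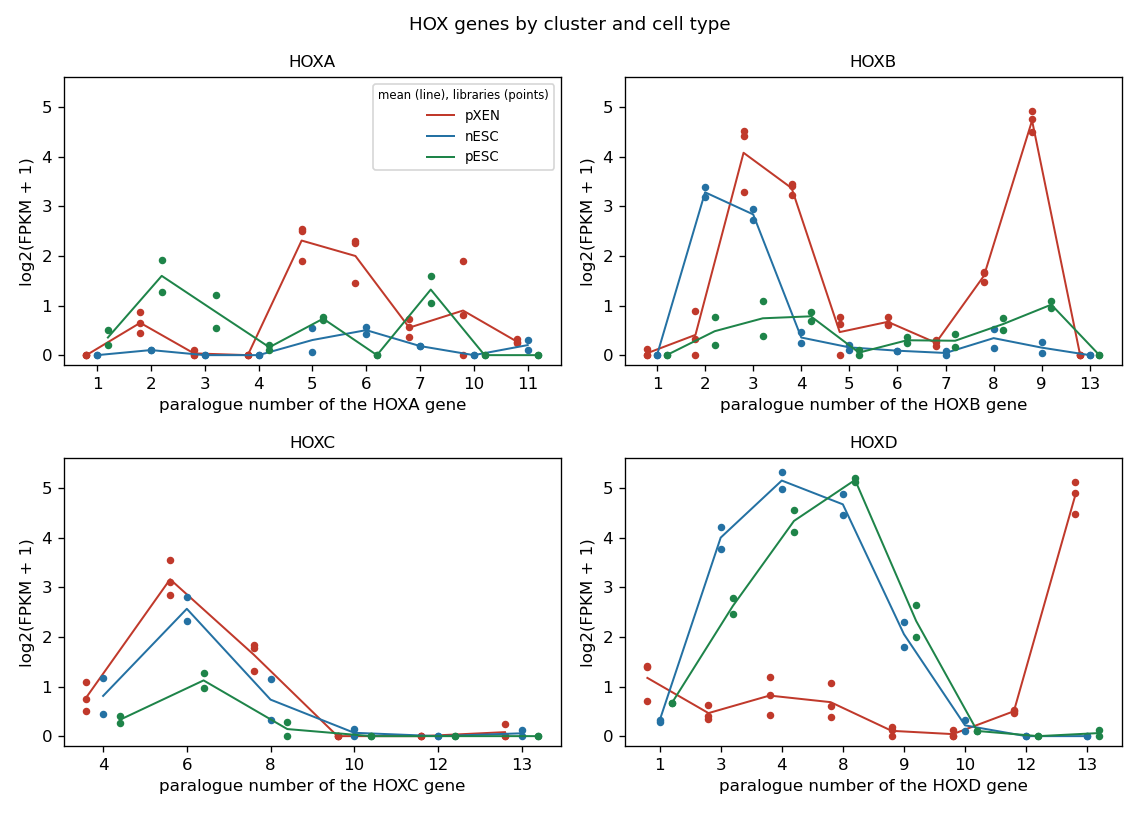
Levels of the HOX genes of each cluster as log2(FPKM + 1) (vertical axis) by paralogue number (horizontal axis, one step per listed gene), with libraries as points and the mean of the log2 values per cell type as lines. In the HOXD panel the ESC lines peak at HOXD4 and HOXD8 and the pXEN lines at HOXD13.

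HOXA5, of the cervical and upper thoracic region, was at 4.82, 2.71 and 4.63 FPKM in the pXEN lines and at most 0.706 FPKM in the ESC lines, and was higher in pXEN cells by 3.98 (SE 0.72, adjusted p = 0.0022) over nESCs and 2.61 (SE 0.64, adjusted p = 0.0106) over pESCs. The call over pESCs ended without pESC line 1 (adjusted p = 0.0689) or line 2 (0.0808), and the difference from nESCs was 3.09 without nESC line 1 and 6.46 without line 2. HOXA6 was at 3.90, 1.73 and 3.75 FPKM in the pXEN lines, 0.352 and 0.487 FPKM in the nESC lines and 0 in the pESC lines. HOXA6 in pXEN cells was at least 9.60-fold above its level in pESCs (adjusted p = 0.00131), while its call over nESCs, 2.85 (SE 0.66, adjusted p = 0.00934), ended without nESC line 1 (adjusted p = 0.079) or line 2 (0.0554) or with the replicate number as a block (0.051). HOXA2 and HOXA3, of the hindbrain and pharyngeal arches, and HOXA7, of the thoracic region, were instead highest in pESCs. HOXA7 was at 2.01 and 1.07 FPKM there, 0.490, 0.280 and 0.659 FPKM in the pXEN lines and 0.133 and 0.138 FPKM in the nESC lines. It was higher in pESCs than in nESCs by 3.46 (SE 0.63, adjusted p = 0.00476). Its lower level in pXEN cells than in pESCs (log2 fold change -1.68, SE 0.49, adjusted p = 0.0221) was not called without pXEN line 1 (adjusted p = 0.0553) or pESC line 1 (0.231). HOXA3, at 1.32 and 0.454 FPKM there, had no count in the nESC lines and 2 in all in the pXEN lines. It was at least 7.95-fold higher in pESCs than in nESCs (adjusted p = 0.0131), a call that ended without nESC line 1 (adjusted p = 0.0742), nESC line 2 (0.0648) or pESC line 1 (0.101, with at least 4.09-fold). The lower level of HOXA6 in pESCs than in nESCs (at least 1.29-fold, adjusted p = 0.0369) held only while no line other than pXEN line 2 was left out, with adjusted p between 0.0573 and 0.128, and was lost with the replicate number as a block (0.0872) or limma on log2(FPKM + 1) (0.231).

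HOXC6, a thoracic gene, was the one above 5 FPKM among the 6 HOXC genes listed by symbol. It was at 10.6, 6.17 and 7.57 FPKM in the pXEN lines, 4.01 and 6.0 FPKM in the nESC lines and 1.41 and 0.971 FPKM in the pESC lines. It was lower in pESCs than in nESCs (log2 fold change -2.08, SE 0.42, adjusted p = 0.00747, and 0.0633 without pESC line 2, where the call was lost) and higher in pXEN cells than in pESCs by 2.77 (SE 0.40, adjusted p = 0.000878). Its difference between pXEN cells and nESCs, 0.69 (SE 0.35, adjusted p = 0.132), was not called. Of the other HOX genes, 14 were not tested, and of these HOXA10 and HOXC8 alone reached a mean of 1 FPKM in a cell type, both in pXEN cells. HOXA10 rested there on 4, 0 and 16 counts.

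Among genes of wider use, the Iroquois factors were the highest members in nESCs. IRX5 was at 64.5 and 54.3 FPKM in the nESC lines, 3.57 and 3.53 FPKM in the pESC lines and 0.127, 0.871 and 0.342 FPKM in the pXEN lines. IRX3, which like IRX5 acts in neural tube, heart and limb, was at 48.0 and 55.2 FPKM, then 13.7 and 17.6 FPKM, then 0.471, 0.493 and 1.08 FPKM in the same order. Both followed one order, nESCs above pESCs above pXEN cells, with no overlap. IRX5 was lower in pXEN cells than in nESCs (log2 fold change -6.97, SE 0.39, adjusted p = 5.48e-06) and in pESCs than in nESCs (-4.07, SE 0.36, adjusted p = 0.000172). Without pXEN line 2, which held 8 of its 12 pXEN counts, the first was -7.88. IRX3 was lower in the same comparisons (-6.23, SE 0.29, adjusted p = 2.58e-06, and -1.73, SE 0.25, adjusted p = 0.00179). MEIS2, a cofactor of HOX proteins, was lower in pXEN cells than in nESCs, at 0.653 ± 0.206 against 2.54 ± 0.886 FPKM.

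MSX1, SIX2, SIX4 and DLX3, of limb, craniofacial and kidney mesenchyme, muscle or epidermis, were highest in pESCs. MSX1 was at 22.4 and 20.9 FPKM in the pESC lines, 2.94 and 2.84 FPKM in the nESC lines and 0.685, 0.267 and 0.447 FPKM in the pXEN lines. SIX2 was at 22.7 and 20.3 FPKM, then 3.48 and 3.52 FPKM, then 0, 0.0965 and 0.303 FPKM in the same order. DLX3 was at 5.36 and 4.96 FPKM in the pESC lines and had no count elsewhere. MSX1 was higher in pESCs than in nESCs by 2.89 (SE 0.29, adjusted p = 0.000304), SIX2 by 2.60 (SE 0.43, adjusted p = 0.00295) and DLX3 at least 52.5-fold (adjusted p = 0.000912). DLX3 was at least 47.5-fold lower in pXEN cells than in pESCs (adjusted p = 0.000262). MSX1 and SIX2 were lower in pXEN cells than in pESCs, with log2 fold changes of -5.53 and -7.17, both called, and that of SIX2 was -8.39 without pXEN line 3. SIX4 differed from these in its pXEN level, with 2.00, 5.47 and 3.47 FPKM in the pXEN lines, 0.0748 and 0.0259 FPKM in the nESC lines and 8.61 and 10.2 FPKM in the pESC lines. It was higher than in nESCs by 6.08 (SE 0.66, adjusted p = 0.000154) in pXEN cells and by 7.43 (SE 0.67, adjusted p = 0.000178) in pESCs. Without nESC line 1 these were 6.96 and 8.32. Its call against pESCs, -1.35 (SE 0.37, adjusted p = 0.017), ended without pESC line 1 (adjusted p = 0.0594) or line 2 (0.11).

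TGIF1 and PBX3 were used in all 3 cell types. TGIF1, a repressor of TGFβ and retinoid signalling, was at 95.3, 76.9 and 108 FPKM in the pXEN lines, 28.4 and 30.1 FPKM in the nESC lines and 68.1 and 59.0 FPKM in the pESC lines. It was higher in pXEN cells than in nESCs by 1.67 (SE 0.16, adjusted p = 7.92e-05). The difference from pESCs, 0.56 (SE 0.15, adjusted p = 0.0168), ended as a call without pESC line 1 (adjusted p = 0.0535) or line 2 (0.146). PBX3, a cofactor that HOX proteins bind DNA with, was between 10.4 and 14.5 FPKM in the pXEN lines, 12.1 and 13.3 FPKM in the nESC lines and 9.32 and 9.28 FPKM in the pESC lines. The difference between pXEN cells and nESCs was -0.07 (SE 0.16, adjusted p = 0.732), and neither of the other comparisons was called with all lines. PBX3 was called lower in pESCs than in nESCs with upper-quartile scaling (adjusted p = 0.0397), with only the compared groups in the model (0.0208) and without pXEN line 2 (0.015), and higher in pXEN cells than in pESCs without pXEN line 3 (0.0444). NKX2-5, a heart factor in the mesendoderm class, had no count in the pXEN lines and at most 20 counts elsewhere. It was at least 3.91-fold lower in pXEN cells than in pESCs (edgeR, adjusted p = 0.0331). This bound was 5.29 without pESC line 1 and 2.54 without pESC line 2.

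The members varied widely between the pXEN lines. Of the 22 members with a mean of at least 10 counts in pXEN cells, 10 (45.5%) differed more than 2-fold between the highest and lowest line in FPKM, with a median ratio of 1.87. Over the 15027 genes with such a mean, 18.0% did, with a median of 1.37, though the sets were not matched for level. The largest ratios were 3.35 for LHX1, 2.74 for SIX4 and 2.63 for HOXC4, and the smallest was 1.06 for HHEX. In LHX1, SIX4, HESX1, HOXB3 and MIXL1, line 2 was the line farthest from the others. Line 2 also had more of the collagens COL1A1 (144 FPKM against 16.1 and 14.8) and COL3A1 (77.5 against 0.426 and 3.87), and the part of other cells in its values was not tested. Without line 2 no call on a member was lost and 10 were gained.

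Lists of other genes around these factors are set beside the share of all genes called, which was 54.5% between pXEN cells and nESCs, 48.3% between pXEN cells and pESCs and 32.2% between pESCs and nESCs. The lists were chosen with earlier results of these data known, and the differences from these shares were not tested. Of 14 tested genes of the anterior endoderm and organizer, 4 of them members, 11 were higher and 1 lower in pXEN cells than in nESCs and 10 higher and 2 lower than in pESCs, 85.7% in each case. SHISA2, an inhibitor of WNT and FGF receptors, was at 176, 100 and 176 FPKM in the pXEN lines and at most 1.28 FPKM in the ESC lines. FRZB, a secreted WNT antagonist, was at 240, 118 and 259 FPKM in the pXEN lines and between 1.53 and 10.6 FPKM in the ESC lines. The WNT antagonist SFRP2 went the other way, at 0, 6.15 and 0.478 FPKM against between 49.3 and 104 FPKM. DKK1, a further WNT antagonist, was at 6.71, 18.8 and 12.3 FPKM in the pXEN lines, 0 in the nESC lines and 5.94 and 3.41 FPKM in the pESC lines.

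Of 10 tested genes of posterior signalling, 5 were higher and 2 lower in pXEN cells than in nESCs, 2 higher and 5 lower than in pESCs, and 7 higher and none lower in pESCs than in nESCs. That is 70.0% called in each comparison, against 54.5%, 48.3% and 32.2% of all genes. WNT3A, a ligand of the caudal epiblast, was at 33.8 and 29.0 FPKM in the pESC lines and at most 0.672 FPKM in the other 5 lines. EVX1, a posterior homeobox gene near the HOXA cluster, was at 7.31 and 10.7 FPKM in the pESC lines, with 1 count at most in any other line. These follow the same division of lines as NKX1-2. The retinoic acid receptor RARA was highest in pXEN cells, at 35.9, 38.8 and 34.6 FPKM, against 7.53 and 9.48 FPKM in the nESC lines and 20.6 and 18.6 FPKM in the pESC lines.

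Of 12 tested genes of neural progenitors, 3 were higher and 6 lower in pXEN cells than in nESCs, 2 higher and 7 lower than in pESCs, and 2 higher and 4 lower in pESCs than in nESCs. The shares called were 75%, 75% and 50%, against 54.5%, 48.3% and 32.2% of all genes. RFX4 was at 30.4 and 26.4 FPKM in the nESC lines, 12.2 and 10.5 FPKM in the pESC lines and at most 0.0850 FPKM in the pXEN lines. HES3 and FABP7 showed the same order, at means that fell from nESCs to pESCs to pXEN cells. SP8 was highest in pXEN cells, at 47.0, 42.4 and 41.8 FPKM against between 5.29 and 9.79 FPKM. The list as a whole therefore held genes in both directions, and NEUROD1, OLIG1 and FEZF1 had at most 3 counts in any library.

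Of 30 further homeobox genes tested, 10 were higher and 15 lower in pXEN cells than in nESCs, 6 higher and 15 lower than in pESCs, and 11 higher and 8 lower in pESCs than in nESCs. The shares called were 83.3%, 70.0% and 63.3%, against 54.5%, 48.3% and 32.2% of all genes. MNX1, of motor neurons and pancreas, was at 39.3, 40.8 and 40.8 FPKM in the pXEN lines, 0.136 and 0.493 FPKM in the nESC lines and 25.4 and 26.9 FPKM in the pESC lines. Of the cofactors of HOX proteins besides the members, PBX2 and PBX4 were higher in pXEN cells than in nESCs and MEIS3 was lower in pXEN cells than in pESCs. Of 25 tested Polycomb and MLL complex genes, which keep HOX clusters silent or active, 6 were higher and 6 lower in pXEN cells than in nESCs, 4 higher and 5 lower than in pESCs and 2 higher in pESCs than in nESCs. The shares called were 48.0%, 36.0% and 8.0% in the same order. Of the marker lists, 7 of 8 tested extra-embryonic endoderm genes were higher in pXEN cells than in either kind of ESC, 87.5% in each case. Of 7 epiblast genes, 3 were higher and 3 lower against nESCs, then 1 and 6 against pESCs (85.7% and 100% called). Of 5 trophectoderm genes, 1 and 2, then 0 and 4 were (60.0% and 80.0%). Of 13 fibroblast genes, 5 and 5, then 1 and 5 were (76.9% and 46.2%). The shares of all genes called were 54.5% and 48.3%, and the differences were not tested.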

How the data were processed

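The deposited counts are reads per gene, not normalized, and the deposited FPKM values are those reads scaled by the authors by gene length and a total per library. The submitters' processing notes name HISAT2 2.0.5, featureCounts 1.5.0-p3, edgeR 3.22.5 and Sscrofa10.2. Whether counting used strand is not given in the sources used here, so how reads of genes overlapping on opposite strands were assigned is not known. The members and lists were chosen with earlier results of these data known. Counts of all 7 libraries were fitted in 1 model in edgeR 4.0.16 (R 4.3.3) with TMM scaling, its filter on low counts, the quasi-likelihood test and Benjamini-Hochberg adjustment over all 17447 genes tested, which was checked on simulated data. Genes without counts in a cell type were given a bound at 3 counts per library. Those with 1 to 3 counts in all were given a ratio with its exact 95% interval. This interval covers counting error only and not the spread between lines. Levels were given for members with a mean of at least 5 FPKM in a cell type. Folds were given for the 8 called members with the largest change per comparison and direction, if at least 10 counts were present in every library of the higher group, and in any case for OTX2, GBX2, HHEX, GSC, MIXL1, HESX1, LHX1 and EN2. Further members were named after their values were seen, where a count or an exception called for it. Alternatives, 17 in all, included DESeq2 1.42.0, limma 3.58.1 on log2(FPKM + 0.1) and log2(FPKM + 1), other scalings and filters, each line left out and the replicate number as a block. Summaries and plots used Python 3.11.15, pandas 2.3.3, scipy 1.17.1 and matplotlib 3.10.9.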

Additional observations from a re-analysis of the deposited data

How the results depend on the processing

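A minimum of 10 counts in every library left 6 members, since it removes by construction any gene absent from a cell type. It gave 3 higher and 1 lower in pXEN cells than in nESCs, 4 higher and 0 lower than in pESCs, and 3 higher and 2 lower in pESCs than in nESCs. With only the compared groups in the model, 11 members were lower in pESCs than in nESCs against 7, and the cause was not tested. With each line left out in turn, between 12 and 21 members were higher and 17 to 18 lower in pXEN cells than in nESCs, 10 to 15 higher and 21 to 30 lower than in pESCs, and 16 to 22 higher and 4 to 12 lower in pESCs than in nESCs. Some of these fits leave 1 line in a group, which is then assumed to vary like the others. Same-numbered lines deviated together by correlations between -0.01 and 0.04 over 17447 genes, so the replicate numbers do not pair the lines. With the number as a block, 14 and 17, then 13 and 26, then 22 and 6 members were called. Of 2240 log2 fold changes of members under the alternatives, 2109 stayed on their side of the threshold, 99 lost the call and 32 gained it, and 0 that were called changed sign. The filter on low counts left 20 members untested, of which 4 had no count in any library.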

Other observations

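Rows outside the named members held further homeobox or PAX genes. A row without a symbol, whose identifier the reference table pairs with PAX3, a factor of the dorsal neural tube and neural crest, had no count in the pXEN lines, 10 and 42 counts in the nESC lines and 103 and 78 counts in the pESC lines. It was at least 7.95-fold lower in pXEN cells than in nESCs (edgeR, adjusted p = 0.00389) and at least 24.8-fold lower than in pESCs (adjusted p = 0.00145), and was not called between pESCs and nESCs (log2 fold change 1.64, SE 0.71, adjusted p = 0.136). LMX1A, of the roof plate and midbrain floor plate, was at 31.9 and 24.1 FPKM in the pESC lines and at most 0.194 FPKM in the other 5 lines. VAX2, of the ventral eye, was at 63.2 and 72.8 FPKM in the pESC lines, 1.10 and 2.09 FPKM in the nESC lines and 0, 0.772 and 0 FPKM in the pXEN lines. POU3F3, a paralogue of POU3F2, was at 62.5 and 76.4 FPKM in the nESC lines, 16.6 and 17.5 FPKM in the pESC lines and at most 0.0726 FPKM in the pXEN lines. These genes were picked after their values were seen.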
